A study of Gallus gallus with 858 samples.

Results

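LEF1, TCF7L1 and SP5 are 3 nuclear genes of the canonical Wnt pathway, taken here as the 3 rows of the deposited count table (of 24356) with the identifiers ENSGALG00000031960, ENSGALG00000032656 and ENSGALG00000034094. The cells came from chick embryos electroporated ex ovo at head fold stages with the plasmid reporter Pax2E1-EGFP, in which an enhancer of Pax2 drives the fluorescent protein, and EGFP+ cells of the head were sorted singly into SmartSeq2 libraries. Every group below carried this reporter, and no treatment or mutation separated them. The stages were ss8 (8 to 9 somites, when otic-epibranchial progenitors, OEPs, are present), ss11 (11 to 12 somites, the early placode) and ss15 (14 to 15 somites, the late placode). The strain, the number of embryos and the way cells were divided over embryos are not given in the sources used here. The reporter is an unintegrated plasmid, so the sort selected cells that had been electroporated and held the protein, and cells with markers of other tissues were among them. Each stage was 1 sort and therefore counted as 1 sample. No test between groups was possible. The 95% intervals given are exact ones for counting error within these libraries and hold nothing of the spread between embryos or sorts. For summed counts they also leave out the spread between cells, and PCR copies are counted as separate reads.

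Canonical Wnt signalling stabilises beta-catenin, which enters the nucleus and binds DNA through the HMG-box proteins of the TCF/LEF family. LEF1 acts mostly as an activator with beta-catenin and is itself a target of the pathway in many tissues. TCF7L1 is best known from mouse and frog as the family member that holds targets down while the signal is low. SP5 is a zinc finger factor of the Sp family and a direct Wnt target in many vertebrate tissues, and in mouse and human stem cells it limits the expression of other Wnt targets. In the chick, Wnt signals from the hindbrain side favour otic over epibranchial and epidermal fate within the OEP territory.

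Among the ss8 libraries 8 pairs from the same plate were near-identical (correlation 0.996 to 0.998, against 0.867 at most for other pairs) and were counted as 1 cell each, which left 850 cells. Cells with at least 500000 counted reads and 1000 genes were kept, 781 in all. Of these 34.96% came from ss8, 33.55% from ss11 and 31.50% from ss15, after 7 of the 280 cells of ss8, 22 of ss11 and 40 of ss15 had been left out. The median kept cell held 1252790 reads and 7456 genes at ss8, 1031420 reads and 4999 genes at ss11, and 843786 reads and 4863 genes at ss15. By the study's methods ss8 was sequenced single-end on another instrument than ss11 and ss15, whereas the series text gives 1 instrument and paired ends. Stage, sort and sequencing batch cannot be told apart. The labels call the cells Pax2+. PAX2 was not analysed here, and GATA3, a zinc finger factor of the otic and epibranchial placodes, reached 10 CPM (the count over all counted reads of the cell, scaled to 1000000) in 317 cells, which were 31.9% of the cells at ss8 (87 cells), 42.7% at ss11 and 47.97% at ss15. Cells at 10 CPM or more are called GATA3 cells below, and the rest, other cells. A gene was called different when summed CPM plus 1 differed by more than 2-fold, and it was measured when 1 of the groups had at least 20 CPM and 20% of cells at 10 CPM. A gene could thus count as measured through 1 group alone. CPM is not corrected for gene length, so levels are compared within a gene only.

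SP5 was the member with the large difference between stages. At 10 CPM or more it was read in 75.5% of the cells at ss8 (95% interval 69.9 to 80.4), but in 8.78% at ss11 (5.65 to 12.9) and 6.91% at ss15 (4.08 to 10.8). The median ss8 cell had 34.4 CPM and the highest 737 CPM, and 60 cells (21.98%) reached 100 CPM. At ss11 the median cell was at 0 and the highest at 87.2 CPM, so that no cell reached 100 CPM. Taken as 3 over the number of cells, an approximate limit, this allows a share of up to 1.15%. At ss15 the median was again 0, the highest cell stood at 174.2 CPM and 2 cells (0.813%) reached 100 CPM. The ranges of the stages overlapped, because 17.6% of ss8 cells had no SP5 read and a few later cells were high.

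Summed over cells, SP5 was at 62.7 (exact Poisson 95% interval 61.9 to 63.5), 3.73 (3.50 to 3.96) and 3.55 (3.31 to 3.81) CPM at ss8, ss11 and ss15. This was 16.8-fold lower at ss11 than at ss8, and 21.9% of the 7450 measured genes were past 2-fold in that comparison (15.5% lower at ss11). SP5 passed the filter through ss8 alone. At ss15 and ss11 SP5 was below the level of a measured gene, and the log2 fold between them was -0.05, where 0.926% of measured genes were past 2-fold.

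LEF1 did not pass 2-fold between stages. The share of cells at 10 CPM was 61.9% at ss8 (55.9 to 67.7), 40.1% at ss11 (34.1 to 46.3) and 36.2% at ss15 (30.2 to 42.5), and yet summed CPM was 47.2 (46.5 to 47.9), 53.7 (52.9 to 54.6) and 68.03 (66.95 to 69.1). The intervals of summed CPM leave out the spread between cells, whose SD was 59.5, 108.6 and 161.97 CPM at ss8, ss11 and ss15. A lower share with a higher level in the cells that remained at 10 CPM was also what the median measured gene showed at ss11 against ss8, and 45.4% of measured genes had a drop in share at least as large as LEF1. The median among cells at 10 CPM or more was 57.4 CPM for ss8, 79.1 for ss11 and 108.6 for ss15. Cells at 100 CPM or more were 14.3%, 17.2% and 19.5% of each stage, while cells without a read were 17.2%, 49.6% and 54.9%. The 10% of cells with the most LEF1 held 39.1% of the LEF1 CPM of all cells in ss8, 61.7% in ss11 and 65.7% in ss15. The highest single cell had 492 CPM at ss8, 614 at ss11 and 1561 at ss15.

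TCF7L1 was the most evenly spread member at ss8, where 73.6% of cells (67.98 to 78.8) were at 10 CPM and the cells ranged from 0 over a median of 24.7 to 146.97 CPM. The 10% of cells with the most TCF7L1 held 29.3% of it at that stage. The share was 45.8% at ss11 (39.7 to 52.04) and 35.4% at ss15 (29.4 to 41.7). Summed TCF7L1 was 30.4, 21.9 and 20.1 CPM. The highest ss11 cell, at 787.7 CPM, stood far above the other cells of its stage, and in the median ss11 cell TCF7L1 was at 4.803 CPM. Neither LEF1 (log2 fold 0.18) nor TCF7L1 (-0.46) passed 2-fold between ss11 and ss8, and neither did between ss15 and ss11 (0.34 and -0.11).

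**Figure D1:**
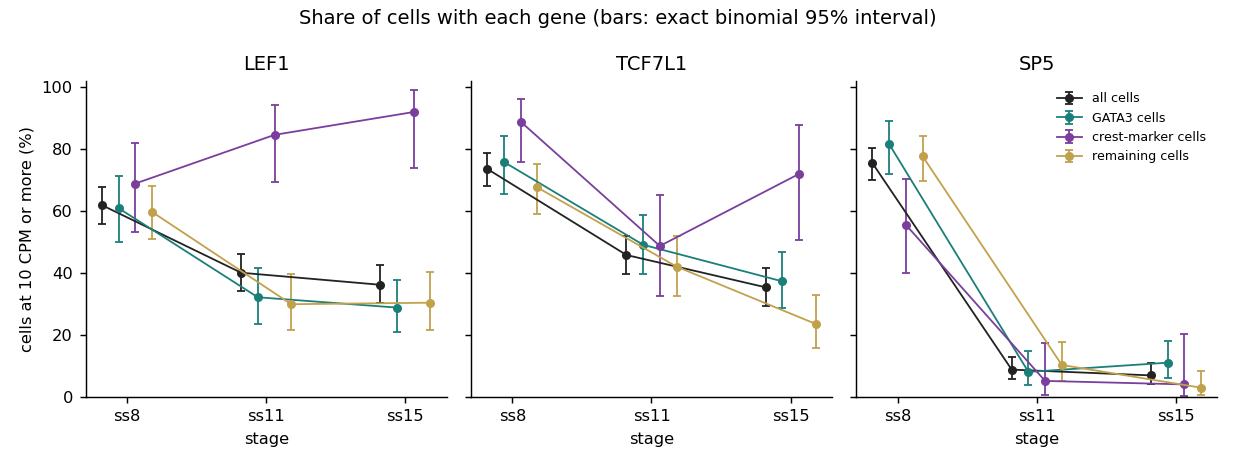
Share of cells at 10 CPM or more (vertical axis, percent) of LEF1, TCF7L1 and SP5 at each stage, for all cells, GATA3 cells, other cells with crest markers and the remaining other cells; bars are exact binomial 95% intervals. SP5 goes from 75.5% of all cells at ss8 to 8.78% at ss11, whereas LEF1 in crest-marker cells is at 68.9%, 84.6% and 92%.

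Detection was lower at ss11 than at ss8 for most genes, so the shares were set beside all measured genes. The share of cells at 10 CPM was lower at ss11 for 93.9% of them, with a median change of -20.2 percentage points. LEF1 changed by -21.8 points and TCF7L1 by -27.8 points, and a drop at least as large as that of TCF7L1 was found in 29.2% of measured genes. These shares thus lay close to the background of the comparison. SP5, which was measured through ss8 alone, changed by -66.7 points, where the 5th percentile of genes was -48.0 points. Among cells at 10 CPM or more the level of the median gene was higher at ss11 by 0.26 on the log2 scale, LEF1 was higher by 0.46, TCF7L1 by 0.10, and SP5 was lower by 0.54. From ss11 to ss15 the median gene changed by -2.83 points, LEF1 by -3.90, TCF7L1 by -10.4 and SP5 by -1.87. The 5th percentile of genes was -10.6 points, so TCF7L1 lay near the lower end of the background. SP5 had little room to fall, as it was in 8.78% of cells at ss11.

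Thinning each cell to 500000 reads left these shares almost where they were. SP5 reached 10 CPM in 76.2%, 8.02% and 6.91% of thinned cells at ss8, ss11 and ss15, LEF1 in 63.4%, 40.8% and 36.6%, and TCF7L1 in 74.7%, 45.4% and 36.6%. Any SP5 read was left in 81.3%, 13.4% and 10.2% of thinned cells.

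**Figure D2:**
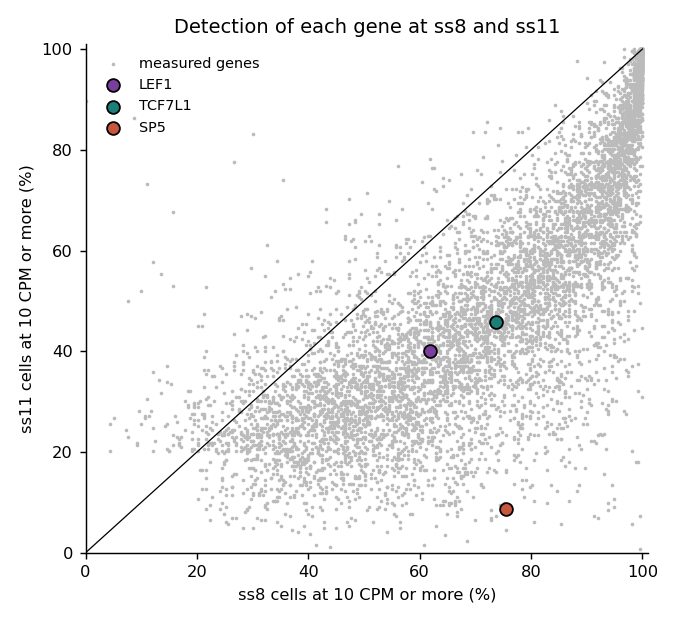
Percent of cells at 10 CPM or more at ss8 (horizontal axis) and at ss11 (vertical axis), 1 grey point for each of 7450 measured genes, with the line of equal shares. LEF1 and TCF7L1 lie inside the cloud below the line and SP5 lies near its lower edge, at 75.5% and 8.78%.

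The 3 ss8 plates, which were parts of 1 sort, gave similar values. Of 85, 94 and 94 cells, SP5 was at 10 CPM in 74.1%, 78.7% and 73.4%, LEF1 in 56.5%, 68.1% and 60.6%, and TCF7L1 in 68.2%, 80.9% and 71.3%. Summed SP5 was 75.4, 64.2 and 52.6 CPM on the plates, so that each lay far above the ss11 and ss15 values.

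SP5 was lower at ss11 than at ss8 within GATA3 cells, other cells and, as given further on, cells with crest markers. In GATA3 cells summed SP5 was 91.8 CPM at ss8, 3.85 at ss11 and 5.47 at ss15, and 81.6% (71.9 to 89.1), 8.04% (3.74 to 14.7) and 11.02% (5.998 to 18.1) of cells were at 10 CPM. SP5 was 23.9-fold lower at ss11 than at ss8 in these cells, beside 24.3% of measured genes past 2-fold (17% lower). In other cells it was at 49.2, 3.64 and 1.77 CPM and was 13.5-fold lower at ss11, beside 23.1% past 2-fold (16.2% lower). SP5 passed the filter through ss8 alone in both groups. At ss11 no GATA3 cell and none of the 150 other cells reached 100 CPM of SP5, which allows shares of up to 2.68% and 2%, against 33.3% and 16.7% at ss8 (29 and 31 cells).

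Within GATA3 cells LEF1 and TCF7L1 stayed within 2-fold from stage to stage. LEF1 was at 34.5 CPM at ss8, 19.03 at ss11 and 28.6 at ss15, in 60.9%, 32.1% and 28.8% of cells (49.9 to 71.2, 23.6 to 41.6 and 20.9 to 37.9). TCF7L1 was at 32.7, 24.1 and 19.3 CPM, in 75.9%, 49.1% and 37.3% of cells. Without its highest cell the ss11 value of TCF7L1 was 20.2 CPM. The log2 folds at ss11 over ss8 were -0.83 for LEF1 and -0.42 for TCF7L1. From ss11 to ss15, where 2.37% of measured genes in these cells passed 2-fold, no member did.

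LEF1 was the member past 2-fold between GATA3 cells and other cells, at both later stages. At ss8 it was at 34.5 CPM in GATA3 cells and 53.1 in other cells (log2 fold -0.61), and no member passed 2-fold, where 9.48% of measured genes did. At ss11 LEF1 was at 19.03 against 79.03 CPM, 4.15-fold lower in GATA3 cells, and 6.42% of measured genes were past 2-fold (2.9% lower). LEF1 passed the filter through the other cells alone at that stage. At ss15 it was at 28.6 against 104.7 CPM, 3.65-fold lower, beside 4.88% past 2-fold (3.06% lower and 1.82% higher, or 2.56% and 2.34% under TMM scaling). The cells overlapped throughout: the median GATA3 cell was at 23.4 CPM at ss8 and at 0 at both later stages, and the median other cell at 33.2, 4.45 and 1.66 CPM. The groups differed most in their upper range, since 6 GATA3 cells (5.36%) and 39 of 150 other cells reached 100 CPM at ss11, and 9 (7.63%) and 39 (30.5%) did at ss15.

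TCF7L1 did not divide the cells in this way. It was at 32.7 against 29.3 CPM at ss8, 24.1 against 20.2 at ss11 and 19.3 against 20.9 at ss15, with log2 folds of 0.15, 0.24 and -0.11. SP5 was at 91.8 in GATA3 cells against 49.2 CPM in other cells at ss8, a log2 fold of 0.89, and it lay on the same side on the 3 plates (106.3 against 58.03, 69.7 against 60.5 and 107.9 against 36.97 CPM). On the 2nd plate this gap was small. At ss11 SP5 was at 3.85 against 3.64 CPM. At ss15 the shares of cells were 11.02% (5.998 to 18.1) and 3.13% (0.858 to 7.81), 13 and 4 cells, at a level too low to count as measured.

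**Figure D3:**
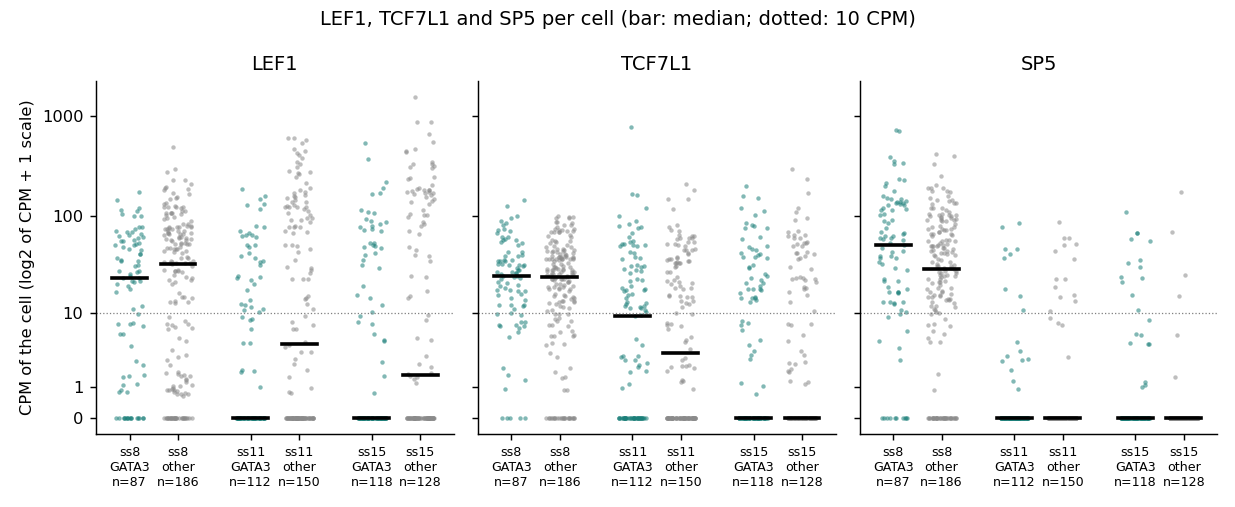
CPM of LEF1, TCF7L1 and SP5 in every kept cell (vertical axis, log2 of CPM plus 1), by stage, in GATA3 cells (teal) and other cells (grey), with the median as a bar. LEF1 has its highest cells among the other cells of ss11 and ss15, and SP5 points thin out after ss8 in both groups.

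The cells without GATA3 were a mixture. Markers of neural crest (PAX7, FOXD3, TFAP2B, DRAXIN, RXRG and EDNRB) were lower in GATA3 cells for 4 of 5 measured markers at ss8, 4 of 5 at ss11 and 3 of 4 at ss15. Of all measured genes 3.61%, 2.9% and 3.06% were lower there. Summed over the 6 markers, the median GATA3 cell was at 81.4, 7.05 and 0.569 CPM (0 to 2211, 0 to 2872 and 0 to 2559) and the median other cell at 417.8, 314.3 and 31.05 CPM (0 to 4055, 0 to 15090 and 0 to 2658). Neither mesoderm marker (TWIST1 and SIM1) was measured in these comparisons, and SIM1 was at 0 in GATA3 cells of ss15. Other cells with at least 4 of the 6 crest markers at 10 CPM are called crest-marker cells, 45, 39 and 25 at the stages. They are named by this rule only.

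LEF1 was higher in crest-marker cells than in GATA3 cells at the 3 stages. Summed LEF1 in them was 72.8 CPM at ss8, 150.4 at ss11 and 191.6 at ss15, and 68.9% (53.4 to 81.8), 84.6% (69.5 to 94.1) and 92% (73.97 to 99.02) of them were at 10 CPM. The median crest-marker cell went from 57.6 over 113.8 to 171.3 CPM while the median GATA3 cell was at 23.4, 0 and 0 CPM. Against GATA3 cells LEF1 was 2.11-fold, 7.90-fold and 6.69-fold higher, beside 12.7%, 16.3% and 16.8% of measured genes past 2-fold (4.49%, 6.19% and 5.6% higher). At ss11 LEF1 passed the filter through crest-marker cells alone. The ss8 value of 2.11-fold was near the limit and fell below it under 5 other settings, with a log2 fold down to 0.78 without the 1st plate. Of 45 cells at 100 CPM or more of LEF1 at ss11, 21 were crest-marker cells, and of 48 at ss15, 18 were.

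In crest-marker cells LEF1 was 2.07-fold higher at ss11 than at ss8, and TCF7L1 was 2.41-fold lower, beside 29% of measured genes past 2-fold (8.37% higher and 20.7% lower). TCF7L1 passed the filter through ss8 alone, as did SP5. The LEF1 call was lost under 4 other settings (log2 fold down to 0.92 without the 3rd plate), and that of TCF7L1 with a pseudocount of 10 CPM (-0.94). TCF7L1 was at 45.2, 18.7 and 38.2 CPM there, in 88.9%, 48.7% and 72% of cells. SP5 was at 46.5, 1.41 and 0.558 CPM, in 55.6% (39.997 to 70.4), 5.13% (0.627 to 17.3) and 4% (0.101 to 20.4). LEF1 and SP5 thus stood in opposite directions across the stages within this group.

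When crest-marker cells, and the 2, 4 and 1 cells with both mesoderm markers, were set aside, 348 other cells remained over the stages (50.9%, 40.8% and 41.5% of all cells of the stage). In the few mesoderm-marker cells LEF1 was at 196.1, 377.0 and 174.7 CPM, above crest-marker cells at ss8 and ss11, and all 4 of them at ss11 were past 100 CPM. In the remaining cells LEF1 was at 44.3, 40.6 and 78.99 CPM. GATA3 cells were 2.13-fold lower than these at ss11 and 2.76-fold lower at ss15. Beside this, 5.48% and 4.73% of measured genes were past 2-fold (2.6% and 3.15% lower). Crest markers were not all removed from the remaining cells. Summed over the 6 markers, their median cell was at 242.5, 117.7 and 0 CPM (0 to 4055, 0 to 15090 and 0 to 1650). At ss11 LEF1 passed the filter through the remaining cells alone. The ss11 call was lost under 2 other settings (log2 fold -0.98 under stricter limits and -0.80 with a pseudocount of 10 CPM). The shares of cells at 10 CPM did not follow. They were 32.1% in GATA3 cells against 29.9% in remaining cells at ss11, and 28.8% against 30.4% at ss15, where the difference before had been 13.9 and 14.2 points. The median measured gene was 7.84 and 6.45 points higher in GATA3 cells than in remaining cells, and LEF1 stood below it at both stages. Against all other cells the median gene had been 5.27 and 2.65 points higher. At these stages 14 (13.1%) and 20 (19.6%) of the remaining cells reached 100 CPM of LEF1, and the 1561 CPM cell was 1 of them. No class was given to these cells as a group, and what they are was not tested. Otic and epibranchial marker cells, described below, were also among the cells without GATA3. Lower LEF1 in GATA3 cells is therefore no contrast of placodal with other cells. The cutoff of 10 CPM on GATA3 left few cells near it, 4, 0 and 2 cells at 5 to 10 CPM and 8, 5 and 6 at 10 to 20 CPM.

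Cells with several members at 10 CPM were counted at each stage, and no share expected from the single genes was taken. At ss8 all 3 members were at 10 CPM in 96 cells (35.2%) and none of them in 9 cells (3.30%). At ss11 all 3 were found together in 5 cells (1.91%) and none in 79 (30.2%). At ss15 a single cell held all 3 and 100 cells (40.7%) held none.

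Within a stage the correlations between members from cell to cell were 0.25 or less over all kept cells. At ss8 LEF1 was at 10 CPM in 66.2% of cells with TCF7L1 and 50% of cells without it, and the correlation of log2 CPM plus 1 was 0.25 over all kept cells of the stage. At ss11 the shares were 42.5% and 38.0% (r 0.02), and at ss15 45.98% and 30.8% (r 0.22). From ss8 to ss15 the correlation was 0.26, 0.03 and 0.12 in GATA3 cells and 0.25, 0.04 and 0.31 in other cells. Averaged over stages, the median candidate gene described further on had 0.053 with TCF7L1 and the highest, SOX10, 0.26. These averages are not of a kind with the values of single stages. From ss8 to ss15 SOX10 had 0.20, 0.21 and 0.36 with TCF7L1 over all kept cells, where LEF1 had 0.25, 0.02 and 0.22. SP5 had correlations of -0.11 to 0.06 with LEF1 or TCF7L1 over all kept cells of a stage. Within GATA3 cells or other cells of a stage they were -0.13 to 0.09. Cells of a stage share their sort and batch and differ in depth, so these are descriptions.

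**Figure D4:**
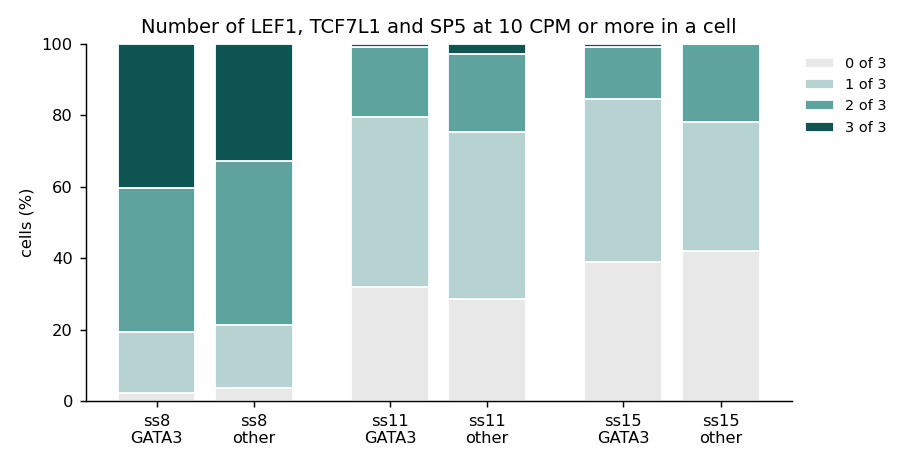
Percent of cells (vertical axis) with 0, 1, 2 or 3 of LEF1, TCF7L1 and SP5 at 10 CPM or more, in GATA3 and other cells of each stage. Cells with all 3 make up 40.2% of GATA3 cells and 32.8% of other cells at ss8, and 0.893% and 2.67% at ss11.

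Otic and epibranchial fates were compared through 1 marker each. SOHO-1 is a homeobox gene of the otic placode, and VGLL2 is a transcriptional cofactor found in epibranchial territory. SOHO-1 cells had at least 20 CPM of SOHO-1 and less than 10 of VGLL2, and VGLL2 cells the reverse, which gave 55 and 24 cells at ss11 and 67 and 51 at ss15. Cells with both, 7 and 11, were left out. Between 20 and 40 CPM of SOHO-1 lay 7 and 4 cells, and between 10 and 20 CPM lay 5 and 0, while 3 and 1 cells had 5 to 10 CPM of VGLL2 and 0 and 2 had 10 to 20. At ss8 there were 8 SOHO-1 and 3 VGLL2 cells, too few to compare, in which LEF1 was at 29.5 and 27.6 CPM, TCF7L1 at 26.6 and 11.4, and the highest SP5 cell at 154.7 and 357.9.

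At ss11 both TCF/LEF genes were higher in SOHO-1 cells. LEF1 was at 38.9 CPM in SOHO-1 cells and 8.79 CPM in VGLL2 cells, 4.43-fold higher, and at 10 CPM in 40% (27.02 to 54.1) and 12.5% (2.66 to 32.4) of cells. The VGLL2 value rested on few cells, since the highest 2 of 24 held 77.9% of it and without the highest it was 5.01 CPM. TCF7L1 was at 26.7 and 9.42 CPM, 2.84-fold higher, in 67.3% (53.3 to 79.3) and 37.5% (18.8 to 59.4) of cells, and was below 2-fold with a pseudocount of 10 CPM (log2 fold 0.92). In this comparison 15.8% of measured genes were past 2-fold, 8.01% higher in SOHO-1 cells. LEF1 and TCF7L1 passed the filter through SOHO-1 cells alone. The tables that named the members include lists of genes that differ between these fates. The members' calls can therefore not be weighed against such shares, here or in the SOHO-1 and VGLL2 comparisons below. The median cell of both groups was at 0 for LEF1, whereas for TCF7L1 it was at 16.2 CPM in SOHO-1 cells and 0 in VGLL2 cells. LEF1 reached 100 CPM in 9 of 55 SOHO-1 cells and in 0 of 24 VGLL2 cells, which allows a share of up to 12.5%. SP5 was at 2.15 and 7.37 CPM, in 3 and 4 cells, and was not measured.

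At ss15 the LEF1 values were on the other side. LEF1 was at 35.97 CPM in SOHO-1 cells and 50.7 in VGLL2 cells (log2 fold -0.48), in 29.9% (19.3 to 42.3) and 29.4% (17.5 to 43.8) of cells, and 9 of 67 and 8 of 51 cells were at 100 CPM. TCF7L1 was at 25.3 and 12.7 CPM (log2 fold 0.94), in 46.3% (33.998 to 58.9) and 19.6% (9.82 to 33.1) of cells. Neither passed 2-fold, where 12.1% of measured genes did. The log2 fold of TCF7L1 lay between -0.0050 under stricter limits and 1.29 in thinned cells. SP5 was at 2.87 and 8.83 CPM, in 3 and 7 cells, and was not measured.

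Between ss11 and ss15 LEF1 passed 2-fold in VGLL2 cells. It was at 8.79 CPM at ss11 and 50.7 at ss15, 5.76-fold higher, beside 15.1% of measured genes past 2-fold (7.46% higher), and the ss11 value was 5.01 CPM without its highest cell. LEF1 passed the filter through ss15 alone there. In SOHO-1 cells it was at 38.9 and 35.97 CPM, where 6.13% of measured genes passed 2-fold. The difference between these changes was not tested.

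**Figure D5:**
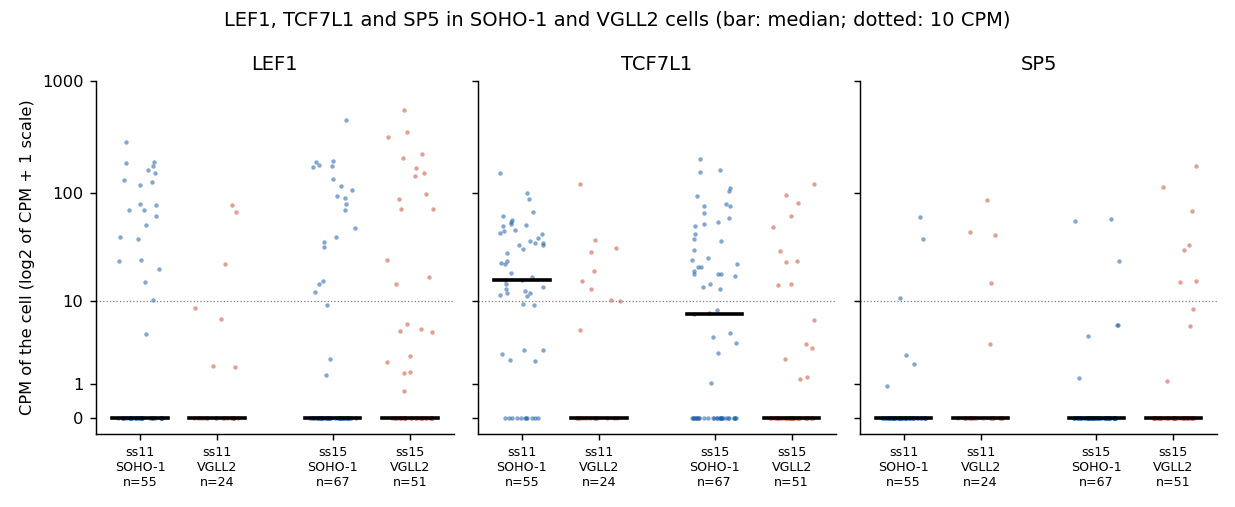
CPM of LEF1, TCF7L1 and SP5 in every SOHO-1 cell (blue) and VGLL2 cell (orange) of ss11 and ss15 (vertical axis, log2 of CPM plus 1), with the median as a bar. At ss11 no VGLL2 cell reaches 100 CPM of LEF1, and at ss15 both groups do; TCF7L1 has a median above 0 only in SOHO-1 cells.

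Not all of these cells had GATA3, and crest markers differed between them. GATA3 was at 10 CPM in 38 of 55 SOHO-1 cells and 21 of 24 VGLL2 cells at ss11, and in 46 of 67 and 28 of 51 at ss15. The rest of them were among the other cells. At 100 CPM or more of LEF1 were 9 SOHO-1 cells at ss11, 5 with GATA3, and 9 at ss15, 2 with GATA3. Of 8 such VGLL2 cells at ss15, 3 had GATA3. Of the 6 crest markers, 2 of 2 measured were higher in SOHO-1 cells at ss11, DRAXIN among them, and 1 of 1 at ss15. Of all measured genes 8.01% and 6.045% were higher there. At ss11 2 of the 6 markers were at 0 in VGLL2 cells. In 4 and 5 SOHO-1 cells against 0 and 1 VGLL2 cells at least 4 of the 6 markers were at 10 CPM. Their summed median was 47.4 CPM (0 to 4183) in SOHO-1 cells and 0 CPM (0 to 298.7) in VGLL2 cells at ss11, and 10.3 (0 to 1420) and 0 (0 to 1254) at ss15. Their part in the LEF1 values was not tested.

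Among cells that also had GATA3, the ss11 differences stayed past 2-fold. LEF1 was at 30.6 against 10.3 CPM and TCF7L1 at 26.2 against 10.5 CPM, with log2 folds of 1.49 and 1.25 over 38 and 21 cells, beside 15.9% of measured genes past 2-fold (8.72% higher). Both genes passed the filter through SOHO-1 cells alone. The TCF7L1 value was below 2-fold under 3 other settings (log2 fold down to 0.81 in thinned cells). At ss15 LEF1 was at 17.9 against 31.9 CPM (log2 fold -0.80) and TCF7L1 at 22.4 against 16.6 CPM (0.41), where 17.2% of genes passed. This LEF1 value was not stable, with log2 folds of -1.26 in thinned cells and 1.54 under stricter limits, and 3 settings put it past 2-fold. Without the highest VGLL2 cell with GATA3, LEF1 was at 5.90 CPM at ss11 and 20.9 at ss15, and TCF7L1 at ss15 was at 9.53. In VGLL2 cells with GATA3, LEF1 was 3.10-fold higher at ss15 than at ss11, beside 17.5% past 2-fold (8.57% higher), but with 11 and 8 cells under stricter limits the log2 fold was -0.54. In these cells too LEF1 passed the filter through ss15 alone.

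Cells were also compared by their GFP count, at 10 CPM or more and below it (531 cells at or above it, or 88.6%, 52.7% and 61.4% of the cells from ss8 to ss15). LEF1 was lower in cells at 10 CPM or more of GFP, at 42.9 against 86.5, 25.7 against 84.4 and 52.01 against 94.5 CPM. TCF7L1 was at 29.97 against 34.2, 23.9 against 19.7 and 17.9 against 23.8 CPM. SP5 was at 66.8 against 25.05, 3.64 against 3.82 and 3.99 against 2.83 CPM. Only 31 cells were below the limit at ss8, and the share of all genes past 2-fold was not taken for this split. The study reported low reporter mRNA in its clusters of neural-like and neural crest-like cells. The part of cell class in these values was not tested.

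The Wnt pathway list held 91 genes, of which 11 could be matched to an identifier, the 3 members and 8 others. The 8 were the ligands WNT9A, WNT9B and WNT11 and the antagonists SFRP1 (a secreted decoy), DRAXIN and SOSTDC1 (secreted inhibitors), DACT2 (a modulator of Dishevelled) and TRABD2A (a protease that inactivates Wnt ligands). Receptors and most ligands were not analysed here. Identifiers were matched through the study's own tables, which include its lists of genes that differ between otic and epibranchial cells. DRAXIN is also among the crest markers and DACT2 is an otic marker. At ss11 against ss8, 4 of the 8 were measured and none passed 2-fold, where 21.9% of all measured genes did. At ss15 against ss11 DRAXIN fell, from 424.2 to 52.01 CPM, the 1 of 4 measured that did, beside 0.926% of all measured genes. DRAXIN passed the filter in the latter comparison through ss11 alone.

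Between GATA3 cells and other cells the antagonists moved in both directions. At ss8 SOSTDC1 was higher in GATA3 cells (55.8 against 6.92 CPM) and DRAXIN lower (114.8 against 580.0), 2 of 4 measured, beside 9.48% of all measured genes. SOSTDC1 passed the filter only through GATA3 cells, the group where it was higher. At ss11 DRAXIN (57.9 against 691.2 CPM) and DACT2 (117.5 against 273.1) were lower, 2 of 4 measured beside 6.42%, and at ss15 none of 5 measured passed 2-fold, beside 4.88%. Against the remaining cells at ss11 DRAXIN was still lower (57.9 against 626.1 CPM), whereas DACT2 was at 117.5 against 142.2 CPM (log2 fold -0.27).

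In SOHO-1 cells against VGLL2 cells 6 of the 8 were measured at each stage, and 2 were higher and 3 lower at ss11, 2 higher and 4 lower at ss15, beside 15.8% and 12.1% of all measured genes past 2-fold. These counts cannot be weighed against those shares, because the tables that named the 8 include lists of genes differing between these fates. At ss11 DACT2 (195.2 against 15.1 CPM) and DRAXIN (114.04 against 15.3) were higher in SOHO-1 cells, and WNT11 (1.42 against 44.9) and TRABD2A (2.60 against 48.3) were lower. Each passed the filter only through the group where it was higher. At ss15 DACT2 (106.4 against 34.7) was higher again. WNT9B was read at 0 in SOHO-1 cells against 54.1 CPM, and WNT11 (1.59 against 56.4), SOSTDC1 (6.16 against 67.6) and TRABD2A (7.64 against 46.4) were lower too. These lower genes passed the filter only through VGLL2 cells. The ligand WNT11 was thus on the VGLL2 side at both stages, whereas LEF1 and TCF7L1 at ss11 were on the SOHO-1 side.

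The genes whose levels ran most like each member from cell to cell were taken from the 81 named genes at 10 CPM in at least 20% of cells of every stage, by the correlation of log2 CPM plus 1 within each stage, averaged over the 3 stages (781 cells). For LEF1 they were TFAP2B, an AP-2 factor of the crest (0.38, with 0.20, 0.46 and 0.49 at ss8, ss11 and ss15), DACT2 (0.38, with 0.22, 0.45 and 0.47) and SMPD3, a sphingomyelinase (0.29). Among all 6745 candidates, named or not, TFAP2B was in place 1, DACT2 in place 2 and SMPD3 in place 12, and the median candidate had 0.092. For TCF7L1 they were SOX10, a factor of crest and otic placode (0.26), TFAP2B (0.25) and the retinoid receptor RXRG (0.24), against a median of 0.053.

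For SP5 they included the tetraspanin CD82 (0.16) and the tight junction gene CLDN1 (0.16), against a median of 0.024. No candidate for SP5 was above 0.20, which is weak in counts this sparse, and with ranks in place of values neither of these genes stayed among the 3 highest. For LEF1 all 3 genes stayed, and for TCF7L1 2 of the 3. Cells of a stage share depth and sort, which correlations between genes share too.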

How the data were processed

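Single-cell SmartSeq2 libraries of sorted cells were analysed from the table of counts per gene and cell that the authors deposited. Per the submitters' processing notes and the study's methods, reads were trimmed with Cutadapt 2.10, aligned to galGal6 plus the sequence of GFP with HISAT2 2.2.1 and handled with SAMtools 1.10, and HTSeq 0.12.4 gave the counts. Counts include PCR copies and carry no strand. No read was processed again.

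Near-identical libraries (correlation above 0.95, at least 20000 reads each) were added together. CPM was the count over the cell's total, scaled to 1000000. Groups were summed, and log2 folds taken after adding 1 CPM. Calls are past 2-fold, without a test, because each stage is 1 sample. Intervals are Clopper-Pearson for shares and exact Poisson for summed counts. Where no cell reached a level, the share that this allows was taken as 3 over the number of cells, which is approximate. Genes were named from 332 pairs of identifier and symbol in the study's tables, which include its lists of differentially expressed genes. The mitochondrial filter was not applied, since no mitochondrial identifier was among the pairs, and no doublets were removed after the gated sort. Named besides the members were up to 3 Wnt genes a role and comparison, by fold, and the 3 genes most like each member, of which 1 for SP5 is not reported here. No coordinates or sequences are given, because an annotation of galGal6 was not used here. Members, lists and groups were chosen with earlier results of these data known. Software was numpy 2.4.6, scipy 1.17.1, pandas 2.3.3 and, for TMM factors, edgeR 4.0.16 in R 4.3.3. The calculations were tested on simulated data. Alternatives covered depth limits, thinning, detection limit, pseudocount, filter, scaling, mean of cells, single plates, and 3 chosen after seeing the data (near-identical libraries left out, crest-marker and mesoderm-marker cells left out, and SOHO-1 and VGLL2 cells with GATA3 only).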

Additional observations from a re-analysis of the deposited data

Results flagged for a closer look

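LEF1 in SOHO-1 cells against VGLL2 cells had a log2 fold of 2.03 at ss11 and -0.48 at ss15, that is 38.9 against 8.79 CPM and 35.97 against 50.7 CPM, so the same contrast lay on opposite sides at 2 stages. Each stage was 1 sample and the difference between the stages was not tested.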

How the results depend on the processing

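No paired analysis was possible because each stage was 1 sort and replicate numbers only name libraries. Most share differences moved by less than their counting interval, with 7 exceptions between consecutive stages over all cells, GATA3 and other cells, and SOHO-1 and VGLL2 cells of a stage, and 12 in the other comparisons, 9 of them under stricter limits and 3 at a detection limit of 20 CPM. Leaving out crest-marker and mesoderm-marker cells, chosen after seeing the data, took the LEF1 share difference of GATA3 against other cells from -13.9 to 2.24 points at ss11 and from -14.2 to -1.58 at ss15. The share difference of the median measured gene went from 5.27 to 7.84 points and from 2.65 to 6.45 points. Stricter limits of 2000 genes and 1000000 reads (74 cells at ss15) gave -29.7 for LEF1, 16.7 for SP5 (from 7.89) and -8.63 for TCF7L1 (from 3.69) in that comparison at ss15, and 7.52 for LEF1 at ss15 against ss11 (from -3.90). They also turned the log2 fold of LEF1 in VGLL2 cells with GATA3 at ss15 against ss11 from 1.54 to -0.54, and that of SP5 in SOHO-1 against VGLL2 cells with GATA3 at ss11 from -1.48 to 1.57. A detection limit of 20 CPM gave -56.2 points for SP5 at ss11 against ss8. Log2 folds left their counting interval far more often than shares did. Of those outside it, apart from the reversals above, 33 were no longer past 2-fold and 19 newly were, while most stayed on the same side. Within it 4 and 8 crossed the limit and 390 did not. The cause of these shifts was not tested.

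The log2 fold of SP5 at ss11 against ss8 ranged from -4.04 to -2.41, that of LEF1 in GATA3 against other cells from -2.07 to -1.05 at ss11 and from -2.12 to -1.43 at ss15, and that of LEF1 in SOHO-1 against VGLL2 cells at ss11 from 1.38 to 2.16, all past 2-fold. TCF7L1 in the last comparison ranged from 0.92 to 1.99, and at ss15 from -0.0050 to 1.29, past 2-fold in thinned cells and in the mean of cells. SP5 in GATA3 against other cells at ss8 ranged from 0.52 to 1.24, past 2-fold under 2 settings, 1 of them without the 2nd plate.

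Leaving out single ss8 plates gave -24.3 to -18.6 points for LEF1, -30.3 to -24.0 for TCF7L1 and -67.8 to -65.0 for SP5 at ss11 against ss8, and -7.40 to 6.66, 0.217 to 4.69 and 7.34 to 9.90 in GATA3 against other cells.

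Without the filter on low values the share of genes past 2-fold was 4.46% at ss15 against ss11 (0.926% with it), 10.8% and 11.4% in GATA3 against other cells at ss11 and ss15 (6.42% and 4.88%), and 20.9% in SOHO-1 against VGLL2 cells at ss15 (12.1%). Their numbers with and without the filter were 62 and 998, 443 and 2295, 330 and 2399, and 812 and 3908, and elsewhere 1630 and 3325 (ss11 against ss8), 706 and 2095 (GATA3 against other cells, ss8) and 1098 and 4211 (SOHO-1 against VGLL2 cells, ss11). Measured at 50 CPM they numbered 1012 in ss11 against ss8, 27 in ss15 against ss11, 353 in GATA3 against other cells at ss8 (later 4.78% and 3.37% of genes), and 474 and 403 in SOHO-1 against VGLL2 cells. TMM scaling raised the higher share of calls in GATA3 against other cells at ss15 from 37.3% to 47.7%, and moved the median of all genes by over 0.1 in ss11 against ss8 within GATA3 cells (0.11) and crest-marker cells (0.18) and in GATA3 against remaining cells at ss15 (0.1016).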
